A study of Mus musculus with 6 samples.

Results

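Nos2, Ptgs2 and Hif1a are 3 of the 750 genes counted in CD4 T cells from mouse liver. Nos2 is the inducible nitric oxide synthase, Ptgs2 the inducible cyclooxygenase, and Hif1a the oxygen-regulated subunit of a transcription factor. They were picked by name, with their values in these libraries already known. Their levels in the 2 groups are therefore given as a description, with no test. The gene names were matched to RefSeq, which places Nos2 on chromosome 11, Ptgs2 on chromosome 1 and Hif1a on chromosome 12. The deposited table names no genome build.

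The 6 libraries fall into 2 groups of 3, which the series calls biological replicates. Libraries Chow 1 to 3 carry the description Control, and libraries FFC 1 to 3 the description MASH. MASH commonly abbreviates metabolic dysfunction-associated steatohepatitis, an inflamed fatty liver, and FFC a feed with added fat, fructose and cholesterol, although neither is written out in the labels. Both groups share the source, CD4 T cells of liver, and the RNA extraction. The sources used here do not state strain, age, length of feeding, how the cells were sorted or whether animals were pooled. RNA was counted on the nCounter platform, in which barcoded probes hybridise to RNA and are counted without amplification.

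Nitric oxide synthases make nitric oxide from arginine. The inducible form is known above all from macrophages that meet bacterial products and interferon gamma, where nitric oxide helps to kill microbes. Cyclooxygenases take the committed step from arachidonic acid to prostaglandins, and Ptgs2 is the form that inflammatory signals switch on, in monocytes and many other cells. The protein of Hif1a is made continuously and destroyed when oxygen is present, so that its regulation is largely at the level of the protein. In T cells it is known to favour glycolysis and the Th17 programme, and both Nos2 and Ptgs2 are among the genes it can bind in other cell types.

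The total recovered count ranged from 726836 to 900322 in the Chow libraries and from 623212 to 693640 in the FFC libraries. The deposited log2 values are these counts times 1 scale factor per library, 0.774, 0.707 and 1.10 in Chow 1 to 3 and 1.18, 1.26 and 1.11 in FFC 1 to 3. Every FFC factor is above every Chow factor, so that a gene with equal counts everywhere comes out higher in FFC. The median difference of the 748 tested genes was 0.43 (log2) on the deposited scale, and 0.04 once each library was centred on its own median. Chow 3 stood apart from the other Chow libraries in several immune genes, and values without it are given where they matter. T cell markers were abundant in every library: the 7 measured of 12 listed summed to 12237 to 14213 in Chow and 17086 to 18817 in FFC on the linear scale. In bulk RNA of this kind, fewer cells of a type and less RNA per cell cannot be told apart.

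RefSeq promoters were matched for 2 of the 3 genes, Ptgs2 and Hif1a. They are shown because these genes stood higher in FFC on the deposited scale and because Hif1a encodes a factor with a known short binding core, ACGTG. Each run covers 150 bases before to 25 after the annotated start in GRCm38.p6, plus strand. Capitals mark ACGTG, the cyclic AMP response core TGACG and the C/EBP-type palindrome TTGCGCAA on either strand.
Ptgs2, chr1:150099881-150100055: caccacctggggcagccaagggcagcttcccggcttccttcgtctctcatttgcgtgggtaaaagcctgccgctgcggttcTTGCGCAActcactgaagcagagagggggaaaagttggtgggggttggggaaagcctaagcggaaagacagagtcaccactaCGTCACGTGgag
Hif1a, chr12:73907717-73907891: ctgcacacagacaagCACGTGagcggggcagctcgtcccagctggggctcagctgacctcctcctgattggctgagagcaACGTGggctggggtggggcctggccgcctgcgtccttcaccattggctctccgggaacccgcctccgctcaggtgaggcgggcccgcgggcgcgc

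In Ptgs2 the core ACGTG lies inside a CACGTG palindrome whose first base is at 17 after the start, and it overlaps a TGACG match on the minus strand that begins at 14. In Hif1a a CACGTG palindrome begins at -135 and a further ACGTG at -70. Of 32851 RefSeq promoter windows of the same length, 13.0% held ACGTG, 15.4% TGACG and 4.97% CACGTG. The palindrome TTGCGCAA at -69 of Ptgs2 was picked after the sequence was seen; 0.128% of windows held it. Neither window held a kappaB motif, present in 5.23% of windows, or TTCNNNGAA, present in 4.81%. These are matches of letters, not binding sites, and the windows are short.

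Nos2 was 2.54-fold higher in FFC than in Chow on the deposited scale. Its deposited log2 values were 8.09, 7.78 and 8.88 in Chow 1 to 3, and 9.29, 9.81 and 9.68 in FFC 1 to 3. All 3 FFC libraries lay above all 3 Chow libraries, with Chow 3 the highest of its group and 0.40 below FFC 1; without Chow 3 the difference below was 1.66. The group means were 8.25 ± 0.57 and 9.59 ± 0.27 (log2, SD, n = 3 each), a difference of 1.34. The recovered counts behind these values were 352, 310 and 429 in Chow and 530, 712 and 737 in FFC, so that the counts were apart even before any scaling. Counting error was smaller than that gap: the exact Poisson 95% interval was 389.4 to 471.6 for the highest Chow count and 485.8 to 577.1 for the lowest FFC count. These intervals cover counting error only.

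Ptgs2 had the larger difference of the enzymes, 3.23-fold on the deposited scale. Its log2 values were 9.10, 8.91 and 10.73 in Chow 1 to 3 and 10.88, 11.07 and 11.87 in FFC 1 to 3. The groups did not overlap, but Chow 3 came within 0.15 of FFC 1. The Chow group was wide (9.58 ± 1.00, against 11.28 ± 0.53 in FFC, log2, SD, n = 3 each), with a difference of means of 1.69. Without Chow 3 that difference was 2.27, and without FFC 3, the library with the most Ptgs2, it was 1.39. In recovered counts Ptgs2 stood at 709, 682 and 1543 in Chow and 1601, 1700 and 3371 in FFC. The counts of Chow 3 and FFC 1 were close: their exact Poisson intervals, 1467 to 1622 and 1523.5 to 1681.4, overlap.

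Hif1a was the most abundant of the 3 by count and differed least, 1.68-fold on the deposited scale. Its log2 values were 12.28, 12.50 and 12.23 in Chow 1 to 3 and 13.06, 13.00 and 13.22 in FFC 1 to 3. The libraries of each group lay close together (12.34 ± 0.14 and 13.09 ± 0.12, SD, n = 3 each), and the groups were 0.49 apart at their nearest. The recovered counts had another order: 6442, 8217 and 4375 in Chow and 7240, 6462 and 8592 in FFC. Chow 2 then exceeded FFC 1 and FFC 2, Chow 3 was the lowest of all, and the groups overlapped.

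**Figure D1:**
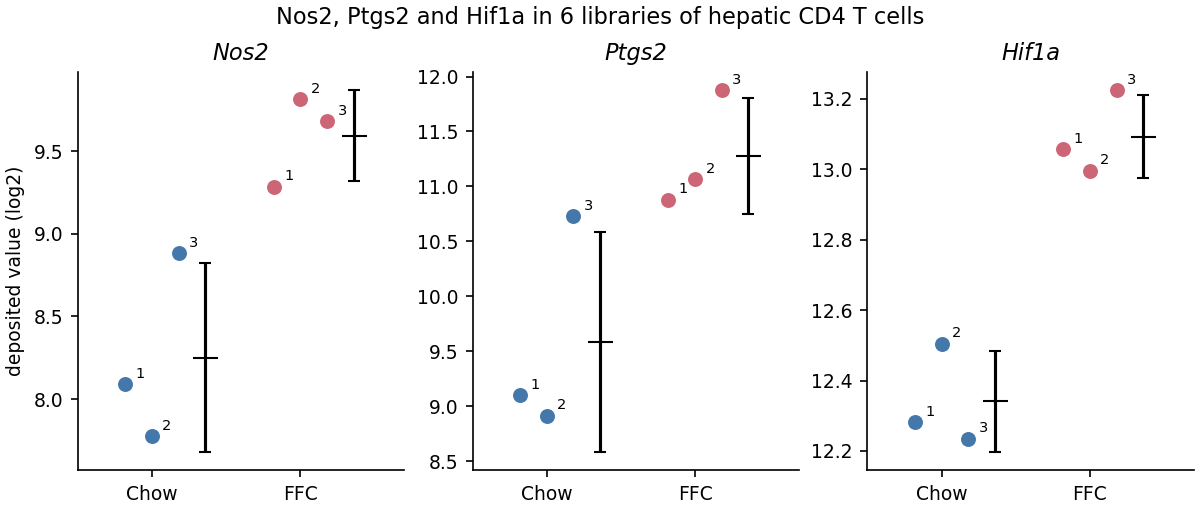
Deposited log2 values (vertical axis) of Nos2, Ptgs2 and Hif1a in the Chow and FFC libraries; points are libraries with their replicate number, and the bars beside them the group mean and SD (n = 3). The FFC points lie above the Chow points in each panel, with Chow 3 nearest to FFC for Nos2 (8.88) and Ptgs2 (10.73) but not for Hif1a (12.23).

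On the deposited scale the groups did not overlap for any of the 3 genes, and 34.4% of the 748 tested genes were likewise apart with FFC higher. Ranked by their difference, Ptgs2 was at 16, Nos2 at 42 and Hif1a at 227 of the 748. With each library centred on its median the differences were 1.31 for Ptgs2, 0.96 for Nos2 and 0.37 for Hif1a. Hif1a then overlapped between the groups, as Chow 2 lay above FFC 2, and Ptgs2 was apart by only 0.01; 28.2% of all tested genes were apart with FFC higher. Quantile normalization gave 1.41, 0.96 and 0.71, and cyclic loess 1.53, 1.07 and 0.67, with all 3 genes apart in both. The share of all tested genes apart was not counted for these 2 scalings. Under these 3 scalings the value of Hif1a thus stood at 0.37 or at about 0.7. It was lower by T cell markers (0.31) and in recovered counts (0.27), both given below. Its direction was the same under every scaling tried.

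Another scaling, added after the data were seen, set each library to the mean of its 7 T cell markers. Ptgs2 was then 1.25, Nos2 0.90 and Hif1a 0.31 higher in FFC (log2), and the groups overlapped for all 3. For Nos2 the overlap was 0.04 between Chow 3 and FFC 1, and for Ptgs2 it was 0.30, as Chow 3 exceeded both FFC 1 and FFC 2. Without any scale factor the differences in recovered counts were 1.21, 0.86 and 0.27; Ptgs2 and Nos2 were apart, as were 20.3% of all tested genes with FFC higher, and Hif1a overlapped.

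**Figure D2:**
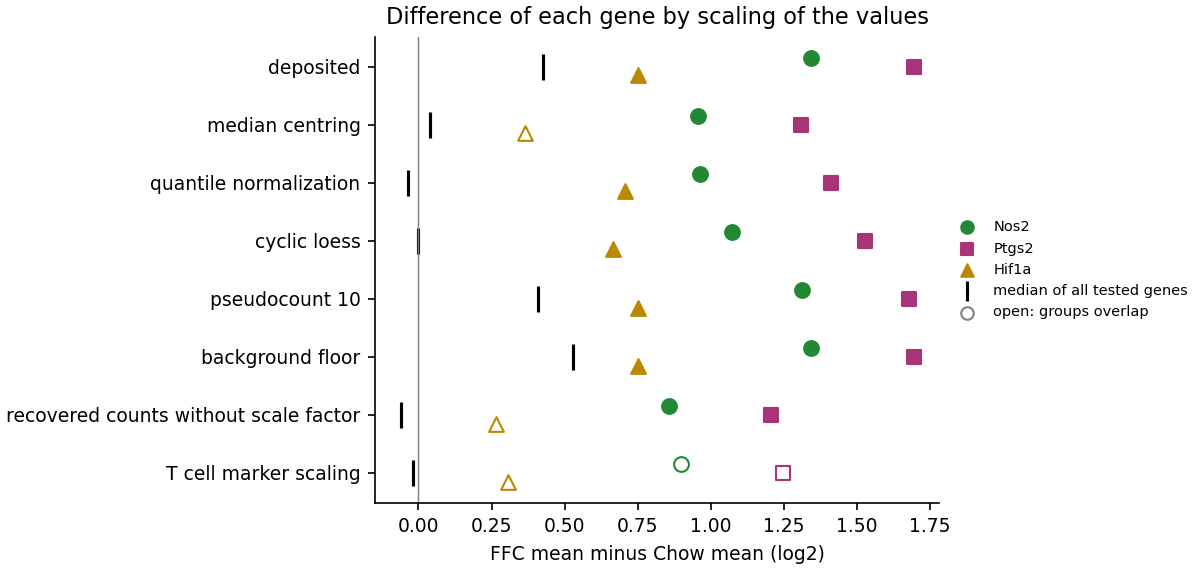
Mean of FFC minus mean of Chow (log2, horizontal axis) for each gene under 8 scalings of the values; filled symbols mark groups that do not overlap, open symbols groups that do, and the short vertical lines the median of all 748 tested genes. Ptgs2 is always farthest right (1.21 to 1.69), and Hif1a is open under median centring, recovered counts and T cell marker scaling.

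The place of a gene in the order of its own library does not depend on the scale factor. Counted from the most abundant of the 750 genes, Hif1a was at 19, 16 and 28 in Chow and at 13, 13 and 8 in FFC. Ptgs2 was at 227, 268 and 103 in Chow and at 98, 91 and 33 in FFC. Nos2 moved from 392.5, 430 and 328 to 284, 234.5 and 186, ties taking their mean. In this measure all 3 genes were nearer the top in every FFC library than in any Chow library, as were 16.3% of the tested genes.

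The log2 ratio of 2 genes within a library is likewise free of the scale factor, although probes differ in efficiency and such a ratio is no ratio of molecules. Ptgs2 minus Nos2 was 1.33 ± 0.45 in Chow and 1.68 ± 0.47 in FFC (SD, n = 3 each), and the groups overlapped. Ptgs2 minus Hif1a was -3.18, -3.59 and -1.50 in Chow and -2.18, -1.93 and -1.35 in FFC, so that Chow 3 sat among the FFC libraries. Nos2 minus Hif1a was -4.19, -4.73 and -3.35 in Chow and -3.77, -3.18 and -3.54 in FFC, again with Chow 3 inside the FFC range. None of these 3 ratios separated the groups.

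Genes with the most similar profile were named, 3 for Nos2 and 4 each for Ptgs2 and Hif1a, by the root mean square distance over the 6 libraries after centring. The nearest to Nos2 was Stat4, a signal transducer of interleukin-12, at 0.12 (log2), against a median of 0.59 over the 749 other genes. Next came the chemokine receptor gene Ccr1 (0.16) and the tyrosine kinase gene Fes (0.19). Ptgs2 had no neighbour as close. Both chains of the interleukin-18 receptor, Il18rap (0.31) and Il18r1 (0.34), were among its 4, with the cytokine gene Il1b (0.32) and the integrin gene Itga4 (0.37), against a median of 0.89. Hif1a was nearest to Rbpj, the DNA-binding partner of Notch (0.11), Il2rb, a chain of the interleukin-2 receptor (0.11), the TNF receptor family gene Tnfrsf8 (0.12) and the DNA methyltransferase gene Dnmt3a (0.16), against a median of 0.43. The distance of Nos2 to Ptgs2 was 0.42, to Hif1a 0.53, and of Ptgs2 to Hif1a 0.83. These distances describe 6 libraries and carry no test.

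**Figure D3:**
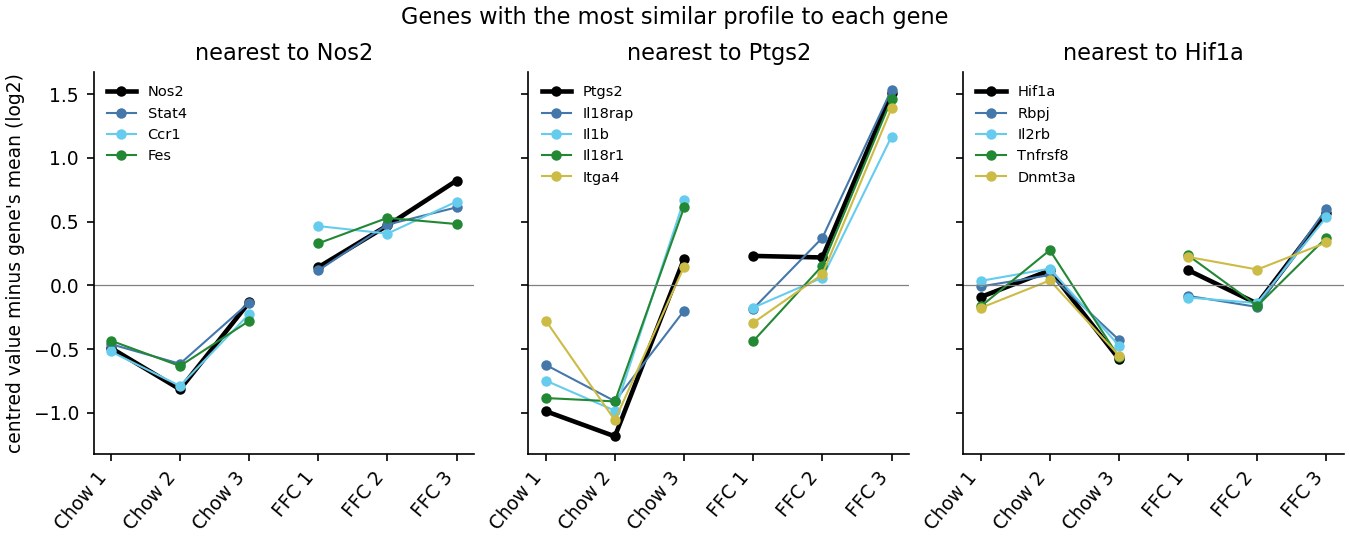
Profiles of Nos2, Ptgs2 and Hif1a (thick black) and of their nearest genes (3 for Nos2, 4 for the others) over the 6 libraries, as the median-centred log2 value minus the gene's own mean; lines only join the points of 1 gene. Chow 3 is high among the Chow libraries in the Ptgs2 panel and low in the Hif1a panel, and FFC 3 is the highest library for all 3 genes on this scale.

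Il1b, the inflammatory cytokine gene next to Ptgs2, can be set beside it by library. Its deposited linear values were 562, 481 and 2034 in Chow 1 to 3 and 1234, 1670 and 2568 in FFC 1 to 3 (9.68 ± 1.14 and 10.77 ± 0.53 in log2, SD, n = 3 each). As for Ptgs2, Chow 3 was far above Chow 1 and Chow 2 and FFC 3 was the highest, but here Chow 3 also exceeded FFC 1 and FFC 2. The difference of Il1b was 1.09 (limma adjusted p = 0.18), and 1.75 without Chow 3 (adjusted p = 0.016; 0.00032 to 0.46 over the alternatives). The log2 ratio of Ptgs2 to Il1b was -0.03, 0.00424 and -0.26 in Chow and 0.61, 0.36 and 0.55 in FFC. That ratio was apart between the groups; the pair was chosen for its similar profile, and no test is given.

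Markers of other cells moved between the same groups. Of 20 listed genes of macrophages, Kupffer cells and monocytes 9 were measured, and they summed to 1334 to 2705 in Chow and 3128 to 7962 in FFC on the linear scale. In limma's fit over all genes 6 of the 9 rose and none fell (unadjusted p under 0.05: 7 and 0), where 17.4% of the 748 tested genes rose and 0.936% fell. Unadjusted, 261 of the 748 were higher and 16 lower. No marker was at 0 in any library, but log2 values cannot hold a 0, so that this says nothing of detection. C1qa, a complement gene of tissue macrophages, had deposited linear values of 81, 95 and 202 in Chow and 656, 809 and 321 in FFC, a difference of 2.26 (adjusted p = 0.027). Of 12 neutrophil genes 9 were measured, with sums of 659 to 1242 in Chow and 1235 to 1986 in FFC, and 6 rose and none fell (unadjusted 7 and 0). Of these 6, 4 (Elane, Ltf, Ly6g and Mmp9) lay in all 6 libraries below a background floor, the mean plus 2 SD of 4 genes used chiefly in other organs. The median difference of the neutrophil list was 1.06, and that of the 4 genes of other organs 1.03. Mpo, an enzyme of neutrophil granules, rose by 1.22 (adjusted p = 0.031; 0.54 under quantile normalization and 0.55 under cyclic loess) and exceeded the floor in 5 of 6 libraries. C1qa likewise exceeded it in 5 of 6, with Chow 1 (81) below its floor of 107. Neither C1qa nor Mpo passed without Chow 1, Chow 2, FFC 1 or FFC 2, each left out alone (adjusted p from 0.068 to 0.12).

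The order of the FFC libraries by these markers was not that by Ptgs2 or Hif1a, and for Nos2 it depended on the scale. FFC 3 had the lowest macrophage sum of its group, 3128 against 5769 and 7962, and the lowest neutrophil sum. The same library had the most Ptgs2 and the most Hif1a. On the deposited scale Nos2 was highest in FFC 2 (linear value 900.2, against 821 in FFC 3), the library with the highest macrophage sum, and also after T cell marker scaling. In recovered counts it was highest in FFC 3 (737, against 712 in FFC 2). In Chow 3 the macrophage and neutrophil sums were the highest of the Chow group, as were Nos2 and Ptgs2, while Hif1a was the lowest. The log2 ratio of Ptgs2 to C1qa was 2.72 ± 0.37 in Chow and 2.16 ± 1.20 in FFC, and that of Nos2 to C1qa 1.39 ± 0.31 and 0.48 ± 0.77 (SD, n = 3 each), with overlapping groups in both. The part of macrophages, neutrophils or T cells in the levels of the 3 genes was not tested.

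**Figure D4:**
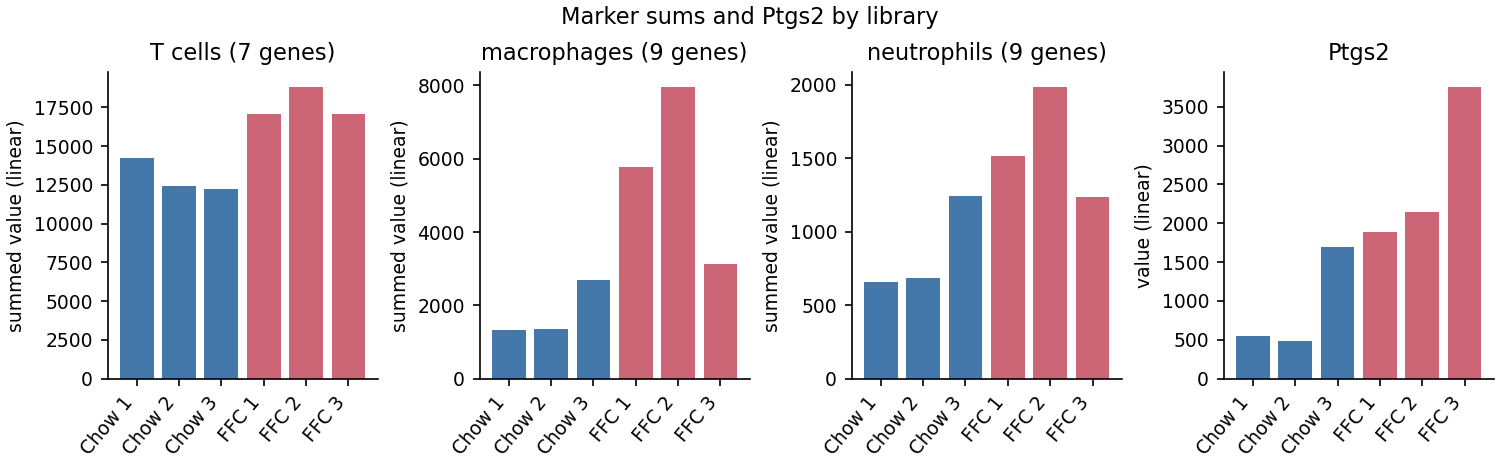
Summed deposited values (linear, bars from 0) of the measured T cell, macrophage and neutrophil markers, and the value of Ptgs2, in each library (blue Chow, red FFC). FFC 3 is the FFC library with the lowest macrophage sum (3128), and its Ptgs2 bar is the tallest.

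Genes used chiefly in other organs give an idea of the level at which counts carry little information. The 4 measured of 20 listed, among them Tg of the thyroid, lay between 48.8 and 124.5 in the Chow libraries and between 94.7 and 216.2 in the FFC libraries on the linear scale. Of the 4, 3 rose in FFC (Tg by 1.05, limma adjusted p = 0.034; 0.67 after centring; 0.32 under quantile normalization, adjusted p = 0.23; 0.00047 to 0.25 over the alternatives). Tg did not pass without Chow 1, Chow 2, FFC 1 or FFC 2, each left out alone (adjusted p from 0.12 to 0.14). Nos2, Ptgs2 and Hif1a exceeded the floor made from these 4 genes in all 6 libraries. Nos2 was nearest to it, at 2.55 to 3.22 times the floor in Chow and 2.85 to 3.75 times in FFC. Ptgs2 stood at 5.13 to 11.6 times the floor in Chow and 8.28 to 17.2 times in FFC, and Hif1a at 31.5 times or more in every library. The log2 ratio of Nos2 to Tg was 1.69 ± 0.20 in Chow and 1.98 ± 0.20 in FFC, with overlapping groups. Probes differ in efficiency, so that a floor from other probes is only a guide.

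The genes that work with the 3 were measured in part. In limma's fit 137 of 748 genes passed an adjusted p of 0.05, or 18.3%, of which 130 were higher and 7 lower in FFC. At an unadjusted p under 0.05, 261 were higher and 16 lower, the background for the unadjusted counts of each list. Nitric oxide and arginine metabolism was represented by 1 gene of 14 listed, Gucy1b1, a subunit of the nitric oxide receptor guanylate cyclase, which differed by 0.53 (adjusted p = 0.19). Arg1 and Arg2, whose products compete with Nos2 for arginine, and the other synthase genes Nos1 and Nos3 were not among the 750 measured genes. Neither were Ptgs1, the constitutive cyclooxygenase gene, or Arnt and Epas1, the partner and the relative of Hif1a. Of 36 genes of prostaglandins and leukotrienes 4 were measured and none passed (unadjusted 2 higher and 0 lower). Ptger4, a receptor of prostaglandin E, differed by 0.48 (adjusted p = 0.29; 0.09 after centring). The lipoxygenase genes Alox5 and Alox15 differed by 0.53 and 0.83 (adjusted p = 0.15 and 0.057) and lay below the floor in all 6 libraries; under quantile normalization they differed by -0.26 and 0.02. Without Chow 3 all 4 genes of this list passed as higher, as did 284 of the 748 tested genes. The median of the 4 was 0.64, against 0.43 over all tested genes.

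Of 39 listed target genes of Hif1a 6 were measured, and none passed. Unadjusted, 2 were higher and 0 lower, against 261 and 16 of all 748 tested genes. Their median difference was 0.32, against 0.43 over all tested genes, and -0.07 after centring. The stress gene Ddit4 differed by 0.61 (limma adjusted p = 0.088; 0.25 under quantile normalization) and Flt1, a receptor of vascular growth factor, by 0.77 (adjusted p = 0.063; 0.023 under quantile normalization). Flt1 exceeded the floor in 1 of 6 libraries and Cxcl12 in 0. Cxcl12, a chemokine gene, differed by -0.35 (adjusted p = 0.47), and in cyclic loess by -1.15 (adjusted p = 0.029; range over the alternatives 0.0078 to 0.98). The smallest of these, 0.0078, came from the floor setting, which replaced the values of Cxcl12 by the floor in every library. Eno1 and Pkm, the measured glycolytic enzymes, differed by 0.16 and 0.05 (adjusted p = 0.67 and 0.91), and the list ranged from -0.35 to 0.77. Without Chow 3, 3 of the 6 passed as higher, where 284 of all 748 tested genes did. Without FFC 3, 1 of the 6 passed as higher, where 234 of all 748 tested genes passed in either direction. Of 15 genes of HIF partners and oxygen sensing 4 were measured, with differences from -0.10 to 0.48, and none passed (unadjusted 0 and 0).

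The signals known to induce Nos2 and Ptgs2 were better covered. Of 23 inducing cytokines, receptors and their transducers 19 were measured; 2 rose and none fell, or 10.5% against the 17.4% of all genes (unadjusted 5 and 0). They were Ifng, the gene of interferon gamma, which rose by 1.86 (limma adjusted p = 0.013; 1.47 after centring), and Csf2, a myeloid growth factor gene, which rose by 1.48 (adjusted p = 0.030; 1.09 after centring, adjusted p = 0.082). Ifng had deposited linear values of 1892, 1627 and 1130 in Chow and 5731, 5459 and 5299.9 in FFC, and it passed without Chow 1, Chow 3 or FFC 3 but not without Chow 2, FFC 1 or FFC 2 (adjusted p = 0.052 to 0.061). Csf2 passed without Chow 3 or FFC 3 but not without Chow 1, Chow 2, FFC 1 or FFC 2 (adjusted p = 0.053 to 0.11). Tnf differed by 0.43 (adjusted p = 0.17; 0.04 after centring) and Il6 by 0.27 (adjusted p = 0.59; -0.12 after centring). Downstream of interferon gamma, Irf1 differed by -0.46 (adjusted p = 0.31). After centring Irf1, a transcription factor that Nos2 induction requires in mouse macrophages, fell by 0.85 (adjusted p = 0.021; 0.021 to 0.98 over the alternatives). The log2 ratio of Nos2 to Ifng was -2.32 ± 0.92 in Chow and -2.83 ± 0.32 in FFC, and the groups overlapped.

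Of 30 genes of the NF-kappaB and Toll-like receptor route 25 were measured, and none passed (limma, unadjusted 3 higher and 1 lower). Their median was 0.24, against 0.43 over all tested genes. Nfkb1 and Rela, subunits of NF-kappaB, differed by -0.02 (adjusted p = 0.97) and 0.10 (adjusted p = 0.78), the endotoxin receptor Tlr4 by 0.72 (adjusted p = 0.088) and its coreceptor Cd14 by 0.42 (adjusted p = 0.32). Without Chow 3, 5 of the 25 passed as higher, where 284 of all 748 tested genes did. Without FFC 3, 3 of the 25 passed as higher, where 234 of all 748 tested genes passed in either direction. Tnfaip3, a feedback inhibitor of this route, and Atf2, a transcription factor, were picked after their values were seen. Tnfaip3 differed by 0.87 (adjusted p = 0.057). Atf2 differed by -0.66 (adjusted p = 0.068) and fell by 1.05 after centring (adjusted p = 0.010; 0.0064 to 0.86 over the alternatives).

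Among 17 measured genes of classical macrophage activation, the state in which Nos2 is best known, 4 rose and 1 fell, or 23.5% and 5.88%, where 17.4% and 0.936% of all tested genes did. Unadjusted, 4 were higher and 2 lower, against 261 and 16 of all 748 tested genes. Fcgr1, an Fc receptor gene, rose by 2.12 (limma adjusted p = 0.030), Ccl5 by 1.62 (adjusted p = 0.040), the cytokine chain genes Il23a by 1.06 (adjusted p = 0.030) and Il12b by 0.87 (adjusted p = 0.048). Ccl2, a chemokine of monocytes, fell by 1.77 (adjusted p = 0.030; -2.15 after centring). Under quantile normalization none of the 4 passed as higher: Fcgr1 and Ccl5 had adjusted p = 0.062 and 0.064, and the differences of Il23a and Il12b were 0.37 and 0.09 (adjusted p = 0.14 and 0.72). Il12b lay below the floor in all 6 libraries and Il23a in 2 of 6. The median of the list was 0.43, that of all tested genes 0.43. Of 6 measured genes of alternative activation Il4ra, the receptor chain for interleukin-4, fell by 1.08 (adjusted p = 0.031) and none rose (unadjusted 2 higher and 1 lower). None of the calls in these 2 lists held without Chow 1, Chow 2, FFC 1 or FFC 2, each left out alone. Of 7 measured genes of reactive oxygen and antioxidant enzymes none passed (unadjusted 2 and 0), with a median of 0.24. Cd3e and Cd4, which mark the T cells themselves, differed by 0.32 (adjusted p = 0.36) and 0.79 (adjusted p = 0.044; 0.40 after centring, adjusted p = 0.20). Cd4 did not pass without Chow 1, Chow 2, FFC 1 or FFC 2 (adjusted p from 0.12 to 0.19).

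**Figure D5:**
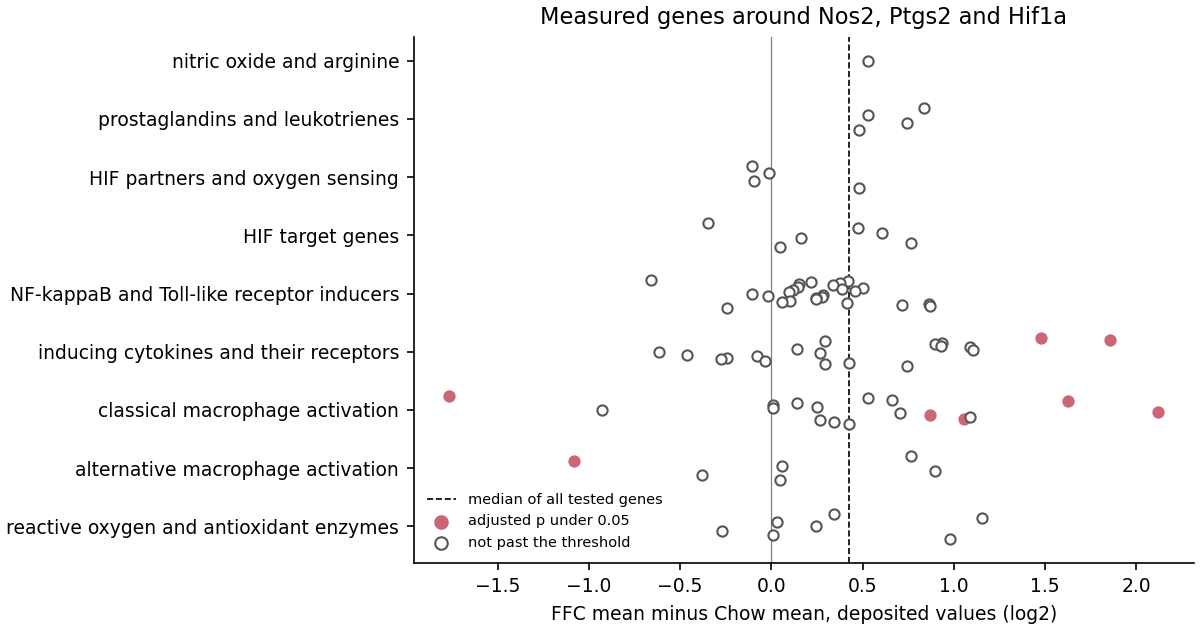
Differences of the measured genes of each list (mean of FFC minus mean of Chow, log2, deposited values), 1 point per gene; filled points passed an adjusted p of 0.05 in limma, and the dashed line is the median of all 748 tested genes, 0.43. Filled points appear in the cytokine list (2), in classical activation (5) and in alternative activation (1).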

How the data were processed

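Per the labels' protocols, total RNA came from a Direct-zol MicroPrep column kit. The authors deposited log2 values, 1 table with 750 genes and 6 libraries; the sources used here do not state their normalization. In every library 100% of values, taken as 2 to their power, were whole multiples of 1 step (within 0.02), which gave the recovered counts and scale factors. No depth beyond these counts is known.

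Genes with a linear mean of at least 20 were tested (748) with limma 3.58.1 in R 4.3.3, lmFit and eBayes, both groups in 1 fit, two-sided, Benjamini-Hochberg over all genes at 0.05. The test was checked on simulated data with independent noise for each gene. Those data held no shift shared by a whole library, so the check does not cover such shifts. The members, gene lists and tests were chosen with earlier results of these data known. Named were a fixed set of markers and pathway genes, up to 5 of the smallest p per list among calls, and up to 4 profile neighbours per gene; some genes under this rule are not reported here. Gucy1b1, Alox15, Ddit4, Flt1, Cxcl12, Eno1, Pkm, Elane, Ltf, Ly6g, Mmp9, Tnfaip3 and Atf2 were named outside that rule, after their values were seen, and the promoter motifs were chosen with the sequences in view. Alternatives covered scaling, pseudocount, floor, filters, eBayes settings, the replicate block and each library left out.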

Additional observations from a re-analysis of the deposited data

How the results depend on the processing

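Nos2, Ptgs2 and Hif1a were higher in FFC under all 16 alternatives run for them, but many of these could not turn the direction. With the groups apart on the deposited scale, neither leaving out libraries nor adding a pseudocount can reverse it. The floor lies below the 3 genes in every library, and the replicate block leaves the difference of means unchanged. Leaving out each library in turn gave 1.11 to 1.66 for Nos2, 1.36 to 2.27 for Ptgs2 and 0.69 to 0.83 for Hif1a. Hif1a stood at 0.37 after median centring, with or without the replicate block, and Nos2 and Hif1a at 0.86 and 0.27 in recovered counts; by T cell markers Hif1a stood at 0.31. The count of genes past the threshold, 137 (130 higher, 7 lower), was far less stable: 1 to 290 with 1 library left out (1 to 284 higher, 0 to 6 lower), by library 7, 2 and 290 without Chow 1, 2 and 3 and 1, 1 and 234 without FFC 1, 2 and 3. Median centring gave 36 lower. Quantile normalization gave 53 (30 and 23), cyclic loess 62 (35 and 27), the background floor 292 (284 higher), recovered counts 46 higher and 55 lower, T cell marker scaling 13 (7 higher), and the fit without Chow 3 and FFC 3 475 (460 and 15); the last 3 were added after seeing the data. Correlations between libraries of the same replicate number (0.02, -0.22 and -0.04) lay within the range of unlike numbers (-0.29 to 0.33). With 3 libraries per group these values cannot exclude a pairing. The replicate block gave 1 call, higher, and 0 lower (unadjusted p under 0.05: 187 and 12), and with centring 30 (18 and 12). Signs turned for Il6 (-0.12 centred, with or without the block, -0.084 quantile, -0.023 loess, -0.22 counts, -0.18 T cell markers; -0.0605 to 0.60 with 1 library left out), Rela (-0.28, -0.22, -0.12, -0.38 and -0.34 in the same order), Cd3e (-0.063 centred, with or without the block, -0.16 counts, -0.12 T cell markers), Alox5 (-0.26 quantile, -0.28 loess), Cd14 (-0.001 quantile, -0.068 counts, -0.026 T cell markers), Tnf (-0.0601 counts, -0.019 T cell markers), Ptger4 (-0.0086 counts), Cxcl12 (1.09) and Atf2 (0.064) at the floor, Nfkb1 (-0.19 to 0.10) with 1 library left out, and Irf1 (0.006) without Chow 3 and FFC 3. At the floor Cxcl12 took the floor's own value in all 6 libraries, so that 1.09 is the difference of the floors. The floors were 81.9 to 147 in Chow and 219 to 260 in FFC (linear). Atf2 exceeded the floor in 3 of 6 libraries, and its FFC values were raised to it. The 284 genes called higher at the floor include genes below it in every library. For the other sign changes the causes were not tested. Depth limits mainly the genes near the level of other organs' genes. Ptgs2 and Hif1a lay above the floor in all 6 libraries, but the counting intervals of Ptgs2 in Chow 3 and FFC 1 overlapped.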
